A study of Mus musculus with 24 samples.

Results

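The change in gene expression between the long-term haematopoietic stem cell (LTHSC) and the pre-megakaryocyte-erythroid progenitor (preMegE) was measured in bone marrow of the VF mouse line. The 6 libraries compared are the 3 LTHSC and 3 preMegE libraries of that line, chosen from the sample labels among the 24 libraries of the series. Both groups came from C57BL/6N mice that carry a Vav1 promoter-driven Cre and the Jak2 V617F mutation (VF). The mice received tamoxifen on 5 days, and the cells were sorted 12 weeks later. RNA was extracted with a PicoPure kit and made into libraries by Smart-seq2, a method for small amounts of RNA that reads full-length transcripts. The 6 libraries of the same populations in a knock-in line (KI; Scl.Cre with a mouse Jak2 knock-in, same strain and treatment) served for 1 further comparison. The Cre driver differs between the lines, so driver and mutation cannot be told apart there. The labels say neither whether replicates came from separate mice nor which markers defined the sort. The p-values therefore measure the spread between these libraries, which may be technical.

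LTHSC are the rare, mostly resting cells that renew themselves and give rise to all blood lineages. The preMegE is an early progenitor that keeps the choice between the megakaryocyte, which sheds platelets, and the red cell lineage. Jak2 is the kinase that carries signals of the erythropoietin receptor and other cytokine receptors, and its V617F form signals without cytokine. In people this mutation is found in polycythaemia vera and related neoplasms with too many red cells or platelets. The series title names iron, which developing red cells take up in large amounts to make heme.

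Total counts were 21630748 to 22271241 in the LTHSC libraries and 20799679 to 24952650 in the preMegE libraries, with 14767 to 16006 genes detected. A principal component analysis of 500 variable genes placed the populations apart on component 1, with 91.2% of the variance. The preMegE libraries differed more from each other (median absolute log2 difference per pair 0.373 to 0.551) than the LTHSC libraries (0.188 to 0.230). PreMegE VF 1 had the highest sum of neutrophil and monocyte markers (23372 CPM, or counts per 1e6 counts, against 9985 and 11188 in preMegE VF 2 and 3). It also had the lowest sum of red cell membrane genes (5502 against 12473 and 10806), and its part in the results was not tested beyond the fits that leave it out. Xist, which is transcribed from the inactive X chromosome, was at 487 and 344 CPM in replicate 2 of LTHSC and of preMegE and at 2.75 to 4.52 in the other 4 libraries. The Y-linked gene Ddx3y was present in all 6 (22.97 to 99.02 CPM).

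Levels are CPM of the TMM-scaled library, with mean ± SD over n = 3 libraries, and fold changes are log2 of preMegE over LTHSC from edgeR's quasi-likelihood test, called at a Benjamini-Hochberg adjusted p under 0.05. Of 13743 genes tested 5065 were called (36.9%). In preMegE 2318 were higher (16.9%) and 2747 lower (20%), and 1363 of the higher and 2100 of the lower genes differed at least 2-fold. The 3 and 3 libraries did not overlap for 7306 genes (53.2%). The median over all genes tested was a log2 fold change of -0.04. The count depended on the libraries and the variance estimate: it was 3360 without LTHSC VF 2, 2919 without LTHSC VF 3, and 1592 when all 24 libraries shared 1 variance estimate. With so many genes called, a gene list is read against these background shares. In bulk RNA a lower level can come from fewer cells of a type or from less RNA per cell, and these cannot be told apart.

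**Figure D1:**
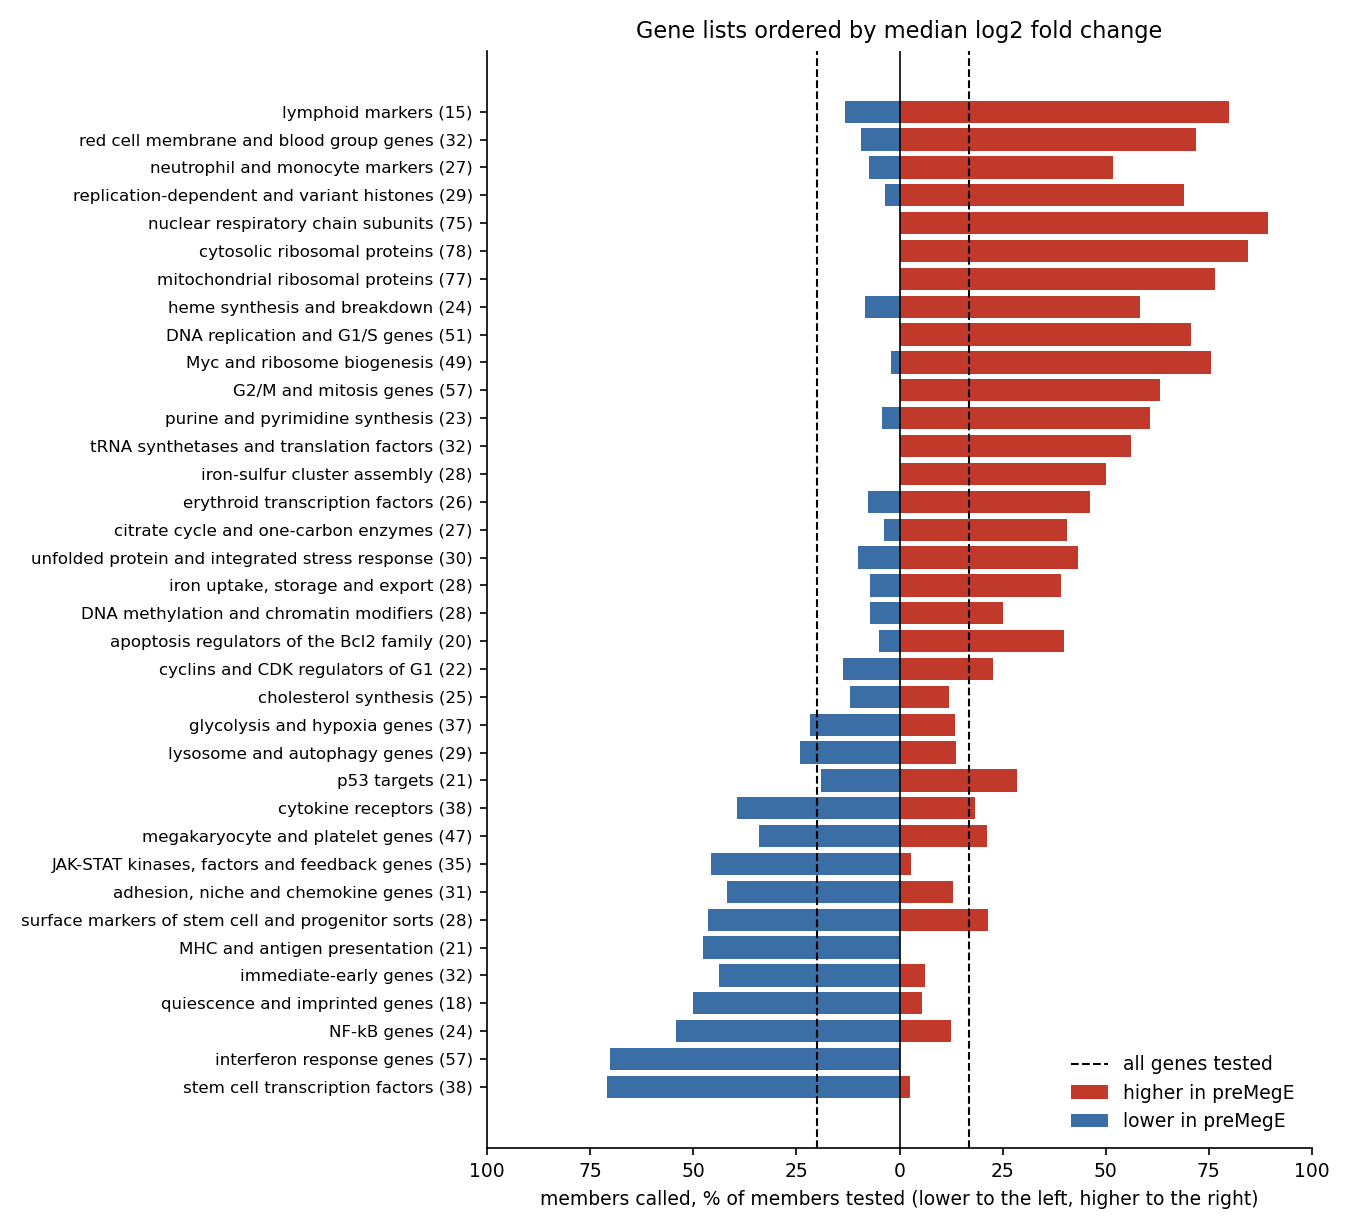
Horizontal bars show, for each gene list with at least 15 members tested (number in brackets), the percent of members called higher (red, to the right) or lower (blue, to the left) in preMegE; dashed lines mark the 16.9% and 20% of all genes tested. Stem cell transcription factors and interferon response genes lie at the bottom with over 70% of members lower, and respiratory chain and ribosomal protein genes reach over 80% higher.

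The transcription factors that maintain stem cells were lower in preMegE. Of the 38 measured, 27 fell and 1 rose (Hmga2), with a median log2 fold change of -1.73. The Hmga2 call (8.02 and 14.8 CPM, adjusted p = 0.0289) was lost without any 1 of the LTHSC libraries (adjusted p 0.0547 to 0.122) and under upper-quartile scaling (0.0542) or no TMM scaling (0.105). Hlf, a bZIP factor that marks stem cells, was at 141, 136 and 185 CPM in LTHSC and 21.3, 7.42 and 12.97 in preMegE. Mecom, the zinc finger factor Evi1, was at 130, 108 and 139 CPM in LTHSC and 13.7, 5.81 and 9.82 in preMegE. Every LTHSC library lay above every preMegE library for both genes. Hlf fell by 3.47 on the log2 scale (SE 0.36, adjusted p = 0.000108) and Mecom by 3.68 (SE 0.31, adjusted p = 3.82e-05). Nkx2-3, a homeobox factor, fell by 4.21 and Prdm16, a zinc finger factor needed for stem cell upkeep, by 3.17. Gata3 (68.7 ± 10.5 to 9.83 ± 2.63 CPM), Mllt3 (162 ± 34.4 to 32.8 ± 3.70) and Meis1, a homeobox partner of Hoxa9 (447 ± 10.7 to 152 ± 40.7), fell as well. Mycn, the Myc relative used by stem cells, went from 338 ± 13.7 to 74.3 ± 5.66 CPM, a fall of 2.18. Gata2, which acts in stem cells and in mast cells and early erythroid progenitors alike, was at 319 to 406 CPM in LTHSC and 258 to 283 in preMegE. These 2 groups did not overlap, but the difference did not pass (log2 -0.42, SE 0.19, adjusted p = 0.105), though it did under upper-quartile scaling (log2 -0.55, adjusted p = 0.0426) and without TMM scaling (log2 -0.68, adjusted p = 0.0173).

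Genes of surface proteins commonly used to sort stem cells and progenitors changed in both directions (median -0.52). Of 28, 13 were lower (46.4%) and 6 higher (21.4%), beside 20% and 16.9% of all genes. The labels do not give the gates of this sort. If a protein was gated on, a difference set by the gate cannot be told apart from another change. Procr, the stem cell receptor EPCR, was at 79.5, 70.3 and 84.7 CPM in LTHSC and 1.87, 1.18 and 1.20 in preMegE (log2 -5.79, SE 0.28, adjusted p = 3.33e-06). Ly6a, which codes for Sca-1, went from 253 ± 18.2 to 6.44 ± 3.01 CPM (log2 -5.30). Esam, an adhesion molecule of stem cells, fell by 2.77. Slamf1, the CD150 antigen that marks both LTHSC and preMegE in common sorts, was at 160, 108 and 109 CPM in LTHSC and at 29.2, 17.8 and 23.9 in preMegE, a fall of 2.41. Kit, the stem cell factor receptor, was at 911 ± 60.3 and 556 ± 108 CPM (log2 -0.71, adjusted p = 0.0239), and this call was lost without LTHSC VF 1, 2 or 3 (adjusted p = 0.105, 0.0922 and 0.0764) and with all 24 libraries (0.403). Eng, an antigen of the stem cell and preMegE sorts, did not pass (315 ± 29.2 and 221 ± 80.2 CPM, adjusted p = 0.155), but was lower without preMegE VF 2 (log2 -0.81, adjusted p = 0.0112) and without TMM scaling (log2 -0.76, adjusted p = 0.0421).

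Of the rising genes of this list, 3 code for antigens of more committed blood cells. Cd48, which stem cells lack, was at 3.53, 4.13 and 2.51 CPM in LTHSC and 188, 162 and 151 in preMegE (log2 5.62, SE 0.26, adjusted p = 3.33e-06). Fcgr3 and Fcgr2b code for the CD16/32 antigens that are used to mark granulocyte-macrophage progenitors. Fcgr3 was at 1.25 to 1.70 CPM in LTHSC and at 94.2, 33.5 and 60.05 in preMegE (log2 5.46). Fcgr2b was at 0.789 to 2.88 and at 50.7, 16.96 and 34.1 (log2 4.15). For both, preMegE VF 1 was the highest and preMegE VF 2 the lowest of the 3 preMegE libraries.

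Of 24 quiescence and imprinted genes of stem cells 18 passed the filter on low counts, and of these 9 fell and 1 rose (median -0.80). Cdkn1c, the imprinted cell cycle inhibitor p57, was at 25.3, 37.1 and 45.2 CPM in LTHSC and 5.00, 0.520 and 1.28 in preMegE (log2 -4.01, SE 0.65, adjusted p = 0.00137). Ndn, an imprinted growth suppressor, went from 23.1 ± 6.73 to 0.849 ± 0.199 CPM (log2 -4.77). Txnip, an inhibitor of thioredoxin, went from 519 ± 60.3 to 191 ± 37.6. The single higher gene was Cdkn1a, the inhibitor p21 (14.0 ± 0.769 to 47.2 ± 17.1 CPM, log2 1.75).

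**Figure D2:**
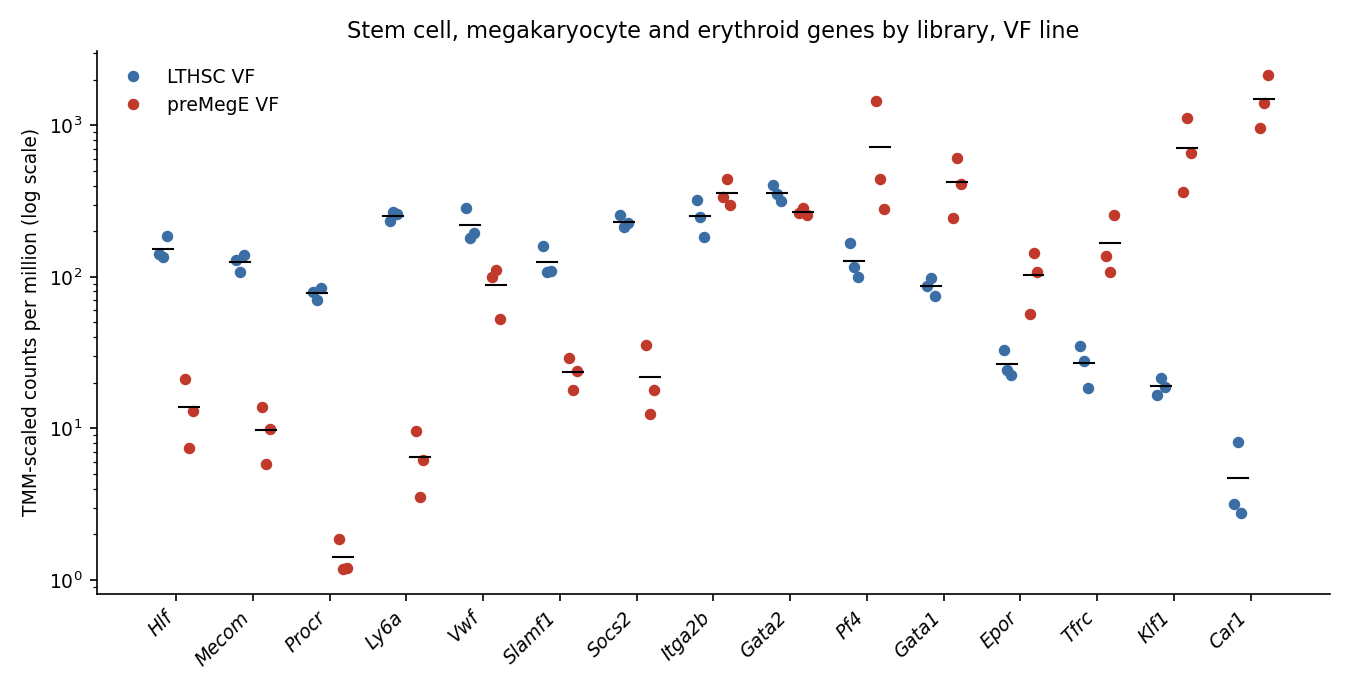
Points are the 3 LTHSC (blue) and 3 preMegE (red) libraries of the VF line and black bars their means, as TMM-scaled CPM on a log axis, for 15 stem cell, megakaryocyte and erythroid genes. The groups are apart for each gene from Hlf to Socs2 (LTHSC higher) and from Pf4 to Car1 (preMegE higher), overlap for Itga2b, and lie close together for Gata2.

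Among the regulators of red cell formation, 12 of 26 factors rose and 2 fell (median 0.58). Klf1, the erythroid Kruppel-like factor (Entrez 16596, chromosome 8, 84901982 to 84905291 in GRCm38), was at 16.6, 21.3 and 18.9 CPM in LTHSC and 363, 1110.4 and 656 in preMegE. Gata1, the GATA factor of the erythroid and megakaryocyte lineages (chromosome X, 7959260 to 7976663), was at 87.6, 98.1 and 74.7 CPM in LTHSC and 244, 608 and 410 in preMegE. Both genes were highest in preMegE VF 2 and lowest among preMegE in VF 1, and no preMegE library overlapped the LTHSC range. The log2 fold change was 5.23 for Klf1 (SE 0.41, adjusted p = 2.78e-05) and 2.28 for Gata1 (SE 0.31, adjusted p = 0.000543). The count of rising factors was 6, 6 and 5 without LTHSC VF 1, 2 and 3, 11 without preMegE VF 1, 6 without TMM scaling and 5 with all 24 libraries. The falling count was 1 without LTHSC VF 1, 2 or 3 or preMegE VF 3, 4 without preMegE VF 2 and 5 without TMM scaling. Gfi1b, a repressor needed for both lineages, went from 141 ± 18.0 to 433 ± 213 CPM (log2 1.62). Samd14, a GATA target that promotes Kit signalling, went from 9.56 ± 1.81 to 93.0 ± 24.1 (log2 3.28). Sox6, a factor that silences embryonic globin, fell by 1.31 (56.5 ± 13.7 to 22.8 ± 1.87 CPM). Their partners Tal1 (log2 0.21), Zfpm1 (0.55) and Nfe2 (-0.38) did not pass, with adjusted p of 0.452, 0.206 and 0.199.

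The start regions of 4 of these genes are shown because Gata1 and Klf1, which rose here, belong to the GATA and Kruppel-like families that bind the words searched for. Each run covers 250 bases before and 50 bases after the annotated start (RefSeq, GRCm38.p6) and is written 5′ to 3′ on the strand of the gene. Capitals mark a GATA word (AGATAA as well as TGATAA, together with AGATAG as well as TGATAG) or a Kruppel-like word (CCNCNCCC), searched on both strands, where overlapping words run together.
Gata1, chrX:7967861-7968160, minus strand: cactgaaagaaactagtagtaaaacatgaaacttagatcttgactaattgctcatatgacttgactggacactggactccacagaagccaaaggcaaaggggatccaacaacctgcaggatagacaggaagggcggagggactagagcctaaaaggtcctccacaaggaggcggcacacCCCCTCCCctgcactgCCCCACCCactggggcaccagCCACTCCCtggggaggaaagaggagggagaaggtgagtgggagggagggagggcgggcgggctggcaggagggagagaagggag
Klf1, chr8:84901732-84902031, plus strand: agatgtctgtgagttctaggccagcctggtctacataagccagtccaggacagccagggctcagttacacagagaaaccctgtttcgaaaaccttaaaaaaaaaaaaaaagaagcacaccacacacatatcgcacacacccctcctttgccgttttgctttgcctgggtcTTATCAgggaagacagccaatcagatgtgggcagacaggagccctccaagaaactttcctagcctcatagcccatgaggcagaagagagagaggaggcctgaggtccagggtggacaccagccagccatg
Epor, chr9:21963527-21963826, minus strand: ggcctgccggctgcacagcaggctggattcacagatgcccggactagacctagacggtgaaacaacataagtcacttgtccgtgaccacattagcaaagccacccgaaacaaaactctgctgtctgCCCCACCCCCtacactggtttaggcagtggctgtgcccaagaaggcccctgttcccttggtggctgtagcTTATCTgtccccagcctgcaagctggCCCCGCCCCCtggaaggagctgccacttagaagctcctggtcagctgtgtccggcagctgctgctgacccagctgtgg
Hlf, chr11:90390868-90391167, minus strand: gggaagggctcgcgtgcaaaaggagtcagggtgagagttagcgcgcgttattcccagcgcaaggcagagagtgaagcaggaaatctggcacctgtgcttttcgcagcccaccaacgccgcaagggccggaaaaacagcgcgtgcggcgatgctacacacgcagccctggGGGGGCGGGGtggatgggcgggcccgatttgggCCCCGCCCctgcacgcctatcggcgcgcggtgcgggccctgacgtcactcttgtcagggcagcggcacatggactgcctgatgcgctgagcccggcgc
In the Klf1 run the capitals begin 80 bases before the start and are a GATA word. The Epor run holds 1 GATA word, which begins 54 bases before the start, and 4 Kruppel-like words. Gata1 and Hlf have no GATA word and 3 Kruppel-like words each in this window. The annotated start used for Gata1 lies inside the gene span given above, downstream of its 5′ end. Both annotated starts of Mecom have 1 GATA word and 2 Kruppel-like words. Of all 32851 windows of this length, 29.8% hold a GATA word and 49.5% a Kruppel-like word. Of the windows of genes tested 19.6% and 66.3% do. Among the 23 windows of the red cell membrane list, 13 hold a GATA word (56.5%), and among the 38 of the stem cell factor list 9 do (23.7%). The share was 17.9% in the heme list and 27.3% in the erythroid factor list. The Kruppel-like word was in 69.6% of the red cell membrane windows, 82.1% of the heme, 75.8% of the erythroid factor and 86.8% of the stem cell factor windows. A match is a description of the letters and does not show that a factor is bound.

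Genes of the red cell membrane and blood groups were mostly higher. Of 32 measured 23 rose and 3 fell, with a median of 3.18. Car1, the red cell carbonic anhydrase, was at 3.16, 8.13 and 2.76 CPM in LTHSC and 959, 1408 and 2134 in preMegE (log2 8.32, SE 0.56, adjusted p = 1.39e-05). Ermap, a blood group protein of erythroid cells, was at 0.498, 1.58 and 0.585 CPM in LTHSC and 174, 468 and 408 in preMegE (log2 8.61). For both genes all preMegE libraries were far above all LTHSC libraries. Rhd, the Rh blood group protein, went from 1.46 ± 1.21 to 297 ± 205 CPM, and its partner Rhag from 16.7 ± 4.36 to 189 ± 103. Aqp1, the water channel, went from 103 ± 12.9 to 973 ± 551. Slc4a1, the band 3 anion exchanger of mature red cells, was low in both groups (0.458 ± 0.0842 and 1.78 ± 1.02 CPM) and rose by 1.94 (adjusted p = 0.0419). The 3 lower genes were Bcam, a blood group adhesion protein (log2 -5.10), the glucose carrier Slc2a1 (88.0 ± 13.9 to 30.1 ± 6.06 CPM, log2 -1.55) and Bpgm, the enzyme that makes bisphosphoglycerate (log2 -0.66). The Bpgm call was lost without LTHSC VF 1, 2 or 3 or preMegE VF 3 (adjusted p 0.0574 to 0.112). Without preMegE VF 1 the counts were again 23 and 3.

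Alpha-globin rose, while beta-globin did not pass. Hba-a1 was at 37.7, 24.04 and 32.6 CPM in LTHSC and 215, 196 and 123 in preMegE (log2 2.50, SE 0.27, adjusted p = 0.000138). Hba-a2, its near-identical copy, had almost the same value in each library, so the pair is read as 1 locus. Hbb-bs was at 30.3 ± 7.86 CPM in LTHSC and 24.5 ± 17.7 in preMegE (log2 -0.31) and Hbb-bt at 36.6 ± 5.98 and 20.8 ± 11.5 (log2 -0.82, adjusted p = 0.0902). Hbb-b1 repeats the values of Hbb-bs and Hbb-b2 those of Hbb-bt in all 6 libraries, so the 6 tested globin entries stand for 3 loci. All 4 beta-globin entries were called lower without preMegE VF 1, and 2 of the 4 without TMM scaling or by limma voom. The summed level of the globin list, which adds both entries of each locus, was 158 to 239 CPM in LTHSC and 300 to 586 in preMegE.

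The pathway that makes heme rose. Of 24 genes of heme synthesis and breakdown 14 rose and 2 fell (median 0.89). Alas1, the first enzyme in all tissues, was at 42.7, 41.5 and 52.2 CPM in LTHSC and 172, 139 and 132 in preMegE (log2 1.70, SE 0.20, adjusted p = 0.000221). Alas2, the erythroid form of that enzyme, was low throughout, at 2.49, 2.71 and 4.64 CPM in LTHSC and 3.57, 6.62 and 2.86 in preMegE. The 2 groups overlapped for Alas2, and the difference did not pass (log2 0.41, SE 0.45, adjusted p = 0.505). The later steps rose together, with Alad (104 to 402 CPM), Urod (log2 1.16), Cpox (2.68) and Fech, which inserts the iron (1.09). Slc25a38, which carries glycine into mitochondria for the first step, rose by 1.90, and the porphyrin carrier Abcb6 by 2.09. Blvrb, a flavin and biliverdin reductase abundant in red cells, was at 27.7 to 33.1 CPM in LTHSC and at 296, 547 and 361 in preMegE (log2 3.74, SE 0.27, adjusted p = 1.88e-05). The 2 lower genes were Abcg2, a porphyrin and drug exporter of stem cells (log2 -0.96), and Hmox2 (log2 -0.73), which opens the heme ring. The Hmox2 call was lost without LTHSC VF 2 (adjusted p = 0.0573) or 3 (0.0719).

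For iron handling, 28 of 34 genes passed the filter on low counts, and 11 of the 28 rose and 2 fell (median 0.34). Ftmt, Heph and Hfe2 had 0 counts in all 6 libraries. Tfrc, the transferrin receptor that brings iron into the cell, was at 34.8, 27.8 and 18.3 CPM in LTHSC and 137, 107 and 257 in preMegE (log2 2.63, SE 0.36, adjusted p = 0.000496). Steap3, the endosomal iron reductase, was at 13.4 to 18.6 CPM in LTHSC and at 88.6, 263 and 190 in preMegE (log2 3.51). Slc11a2, the carrier DMT1 that moves iron out of the endosome, went from 30.8 ± 5.78 to 157 ± 67.3 CPM (log2 2.34). These 3 genes act in series on transferrin iron, and for each the populations did not overlap. Slc40a1, ferroportin, the only known iron exporter, rose as well (5.27 ± 1.58 to 63.7 ± 27.2 CPM, log2 3.60, SE 0.39, adjusted p = 0.000134). The ferritin subunit Fth1 was at 1009.6, 1055 and 1066 CPM in LTHSC and 2321, 1728 and 1628 in preMegE (log2 0.86). Tfr2, the second transferrin receptor, was at 274 and 341 CPM (log2 0.32) and did not pass. Slc25a37, the mitochondrial iron importer mitoferrin 1, did not pass either (33.7 and 43.1 CPM, log2 0.36). The 2 lower genes were Epas1, a hypoxia factor (log2 -4.55, at 4.93 CPM in LTHSC), and Fbxl5, which degrades iron regulatory proteins (log2 -0.87), a call lost without LTHSC VF 3 (adjusted p = 0.0545). The count of rising iron genes was 7, 7 and 6 without LTHSC VF 1, 2 and 3, and 4 with all 24 libraries.

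Iron-sulfur cluster assembly, the other large use of iron in mitochondria, had 14 of 28 genes higher and 0 lower by edgeR, DESeq2 or limma voom, also at an unadjusted p under 0.05 (median 0.61). Glrx5, the glutaredoxin that passes clusters on, was at 68.3, 103 and 98.3 CPM in LTHSC and 429, 312 and 259 in preMegE (log2 1.89, SE 0.25, adjusted p = 0.000452). The scaffold gene Iscu did not pass (log2 0.39), nor did Hscb, its cochaperone (-0.06). With all 24 libraries 3 genes of this list were higher, and Glrx5 had an adjusted p of 0.0757.

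**Figure D3:**
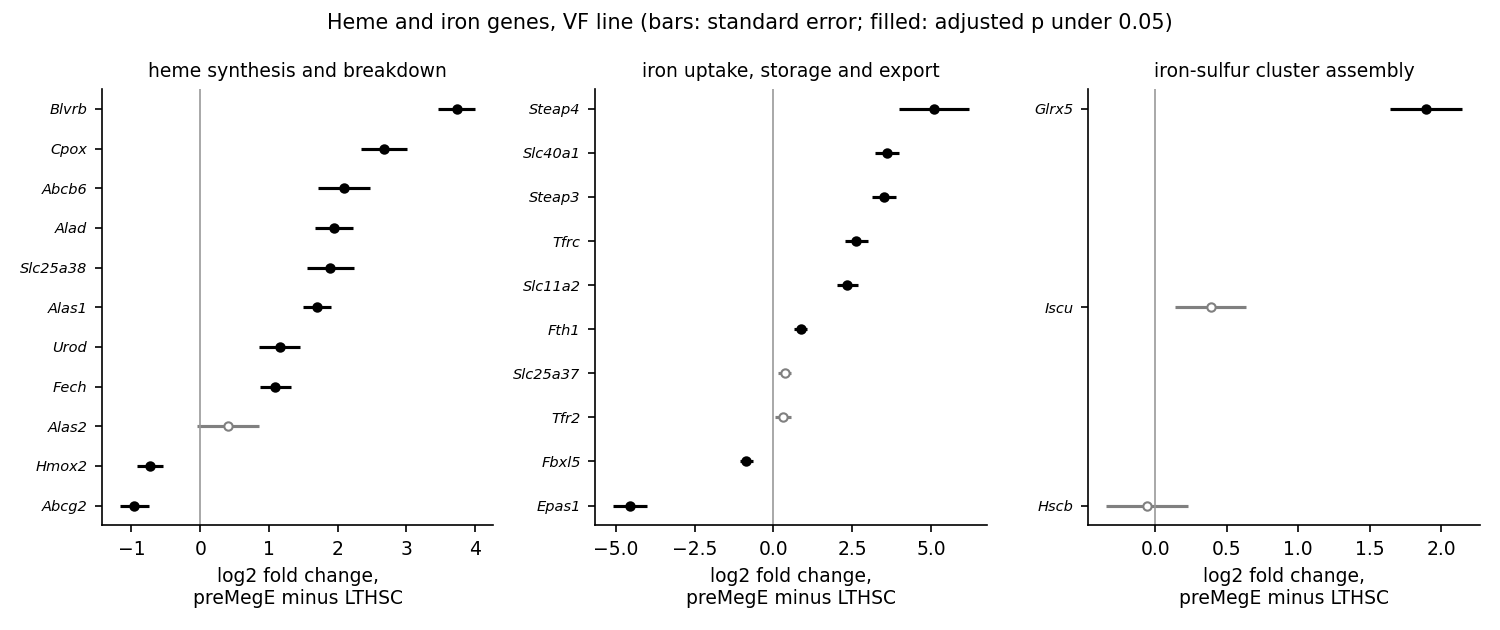
Points are log2 fold changes of preMegE over LTHSC in the VF line with standard errors, for the members of the heme, iron and iron-sulfur lists that the text or this caption names; filled points have an adjusted p under 0.05. Blvrb heads the heme panel at 3.74, Alas2 lies at 0.41 as an open point, and the iron panel is led by Steap4 (at 2.06 CPM in preMegE), Slc40a1, Steap3, Tfrc and Slc11a2.

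Megakaryocyte and platelet genes changed in both directions. Of 52 members 47 passed the filter, with a median of -0.24. Of these 10 rose (21.3%, near the 16.9% of all genes) and 16 fell (34.0%, beside 20% of all genes). Several of the lower genes stood at over 100 CPM in LTHSC. Vwf, von Willebrand factor, was at 284, 180 and 194 CPM in LTHSC and 99.9, 111 and 52.8 in preMegE (log2 -1.32, SE 0.30, adjusted p = 0.00681, and 0.105 with all 24 libraries). Mmrn1, a platelet granule protein, went from 279 to 51.3 CPM (log2 -2.44), Angpt1 from 570 ± 54.4 to 171 ± 54.8 and the integrin chain Itgb3 from 114 ± 15.1 to 58.4 ± 3.09.

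Among the risers, Pf4, a chemokine of platelet granules, was at 167, 116 and 99.9 CPM in LTHSC and at 1449, 440 and 279 in preMegE (log2 2.50, SE 0.53, adjusted p = 0.00534, and 0.0644 with all 24 libraries). Its 3 preMegE libraries spread over a wide range, with VF 1 the highest. Gp5, a chain of the von Willebrand factor receptor, went from 53.02 ± 6.72 to 129 ± 44.3 CPM (log2 1.28). F13a1, factor XIII of platelets and monocytes, was at 1.87, 2.500 and 1.505 CPM in LTHSC and 106, 25.6 and 76.5 in preMegE (log2 5.15). Serpine2 rose by 2.21. Itga2b, the CD41 integrin, was at 324, 248 and 182 CPM in LTHSC and 338, 441 and 297 in preMegE, so the groups overlapped (log2 0.51, SE 0.25, adjusted p = 0.138). Of the other receptor chains, Gp1ba (log2 0.07), Gp9 (-0.06) and Gp1bb (1.23, adjusted p = 0.0522) did not pass.

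Among cytokine receptors 7 of 38 tested rose (18.4%, near the 16.9% of all genes) and 15 fell (39.5%, beside 20%). The median was -0.22, and 4 were lower when all 24 libraries were fitted. Epor, the erythropoietin receptor, was at 32.8, 24.4 and 22.4 CPM in LTHSC and 56.6, 143 and 107 in preMegE (log2 1.95, SE 0.32, adjusted p = 0.00152). Per kilobase of transcript the mean level of Epor was 14.5 in LTHSC and 56.0 in preMegE (RPKM). The growth hormone receptor Ghr fell by 2.49 and the shared chain Il6st of interleukin 6 family receptors by 1.52. Il1rl1, the interleukin 33 receptor of mast cells and basophils, rose by 8.29 from 0.195 ± 0.121 to 62.5 ± 28.8 CPM. Il1rl1 passed the filter on low counts only through preMegE, so its direction was set by the filter. Csf1r, the receptor of monocytes, rose by 4.80 (39.6 ± 14.9 CPM in preMegE).

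Jak2 itself was at 116, 95.4 and 103 CPM in LTHSC and at 63.2, 41.8 and 64.9 in preMegE, so every LTHSC library was higher. The fall of 0.89 on the log2 scale passed (SE 0.22, adjusted p = 0.0107), but not without LTHSC VF 1 (adjusted p = 0.0536) or with all 24 libraries (adjusted p = 0.103). The counts do not separate the mutant from the normal allele. Of 35 kinases, factors and feedback genes of the JAK-STAT pathway that were tested, 16 fell and 1 rose (median -0.30). Socs2, a feedback inhibitor and target of Stat5, was at 254, 213 and 225 CPM in LTHSC and 35.3, 12.4 and 18.0 in preMegE (log2 -3.40, SE 0.36, adjusted p = 0.000122). Cish, another such inhibitor, was at 158, 161 and 201 CPM and 17.8, 16.9 and 17.7 (log2 -3.31, SE 0.20, adjusted p = 1.22e-05). The kinase gene Pim2, also a target, fell by 2.49 and Socs1 by 2.04. Stat5a (log2 0.22) and Stat5b (0.17), the factors that read the Jak2 signal in this lineage, did not pass. The single riser was Ptpn11, the phosphatase Shp2 (log2 0.58, adjusted p = 0.0356), a call lost without LTHSC VF 1, 2 or 3 (adjusted p 0.104 to 0.139) and under upper-quartile scaling (0.0831) or no TMM scaling (0.222). Immediate-early genes, which are induced within minutes of a signal, had 14 of 32 lower and 2 higher (median -0.78). Fosl2 fell by 2.36 and the phosphatase gene Dusp1 by 1.67 (80.6 ± 14.7 to 25.3 ± 4.86 CPM). Myc, which belongs to this list, rose from 206, 311 and 281 CPM to 482, 1177 and 789 (log2 1.62, SE 0.32, adjusted p = 0.00365).

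Cell cycle genes of replication and mitosis rose. Of 51 genes of DNA replication and the G1/S transition 36 rose (median 0.86), and of 57 G2/M and mitosis genes 36 rose (median 0.79). In both lists 0 fell by edgeR, DESeq2 or limma voom, also at an unadjusted p under 0.05. Ccne1, cyclin E1, was at 18.1, 18.3 and 15.6 CPM in LTHSC and 91.4, 226 and 183 in preMegE (log2 3.27, SE 0.32, adjusted p = 8.06e-05). Mcm5, part of the replication helicase, went from 298 ± 59.9 to 748 ± 268 CPM, and Rrm2, which makes deoxynucleotides, rose by 1.45. Mki67, the proliferation antigen Ki-67, was at 182, 196 and 166 CPM in LTHSC and 290, 410 and 433 in preMegE (log2 1.06, SE 0.21, adjusted p = 0.00397). Cenpa, the histone of the centromere, rose by 1.76. Of 29 histone genes tested 20 rose and 1 fell (median 1.39), and the linker histone Hist1h1b was among the risers (log2 2.84). The summed histone level was 3201, 3065 and 3210 CPM in LTHSC VF 1, 2 and 3. In preMegE VF 1, 2 and 3 it was 5217, 3418 and 3212, so the sum was clearly higher in VF 1 alone. Of 22 regulators of G1, 5 rose (22.7%) and 3 fell (13.6%), beside 16.9% and 20% of all genes. The median of this list was -0.002, so it did not share the rise. There were 2 higher without LTHSC VF 3 and 1 lower without LTHSC VF 2. Cdk6, a kinase that sets how readily stem cells leave rest, was at 549, 669 and 404 CPM in LTHSC and 1895, 925 and 1139.7 in preMegE (log2 1.29, adjusted p = 0.00855, and 0.0556 without LTHSC VF 3). Without LTHSC VF 3 the counts of rising genes were 16 for G1/S, 19 for G2/M and 12 for histones, and without LTHSC VF 2 the G2/M count was 21. With all 24 libraries they were 13, 8 and 1. The summed G2/M level was 3999.99 to 4949.9 CPM in LTHSC and 7405 to 8236 in preMegE.

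Genes that build ribosomes and mitochondria were higher in large shares. Of 49 genes of the Myc and ribosome biogenesis list 37 rose and 1, Mycn, fell (median 0.86). Nhp2, a protein of small nucleolar particles, was at 129, 133 and 104 CPM in LTHSC and 595, 621 and 310 in preMegE (log2 2.06, SE 0.28, adjusted p = 0.000512). Of 78 cytosolic ribosomal protein genes 66 rose (median 1.20), and of 77 mitochondrial ribosomal protein genes 59 rose (median 1.01). Of 75 nuclear genes for respiratory chain subunits 67 rose (median 1.36). In these 3 lists 0 fell by edgeR, DESeq2 or limma voom, also at an unadjusted p under 0.05. Uqcr11, a subunit of complex III, was at 139, 159 and 148 CPM in LTHSC and 1401, 563 and 312 in preMegE (log2 2.35, SE 0.46, adjusted p = 0.00334). The preMegE libraries spread widely, with VF 1 the highest. The summed ribosomal protein level was 44192, 30657 and 23087 CPM in preMegE VF 1, 2 and 3 and 15022 to 15936 in LTHSC. Without preMegE VF 1 the rising counts were 62 for ribosomal proteins and 64 for respiratory chain subunits. Without LTHSC VF 1, 2 and 3 they were 43, 43 and 29 for ribosomal proteins and 21, 23 and 15 for ribosome biogenesis. Without LTHSC VF 3 the respiratory chain count was 39, and without LTHSC VF 1 and 3 that of mitochondrial ribosomal proteins was 38 and 39. With all 24 libraries the counts were 0 for ribosomal proteins, 3 for mitochondrial ribosomal proteins, 4 for respiratory chain subunits and 14 for ribosome biogenesis, and Uqcr11 had an adjusted p of 0.123. Without TMM scaling, which moved the median of all genes by -0.26, 21 genes of ribosome biogenesis rose.

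Biosynthetic genes followed in smaller shares. Of 32 tRNA synthetases and translation factors 18 rose and 0 fell, also at an unadjusted p under 0.05 or by DESeq2 or limma voom (median 0.63). Of 23 purine and pyrimidine synthesis genes 14 rose and 1 fell, and of 27 citrate cycle and one-carbon enzymes 11 rose and 1 fell. Mthfd1, a folate enzyme, went from 116 to 446 CPM (log2 1.94), and Nme1, a nucleoside diphosphate kinase, from 336 ± 46.9 to 1098 ± 359. Without LTHSC VF 3 the counts of rising genes were 6 for translation, 5 for nucleotide synthesis and 5 for the citrate cycle list. Without LTHSC VF 1 and 2 they were 7 and 7 for translation and 7 and 8 for nucleotide synthesis, and with all 24 libraries 6, 4 and 7 for the 3 lists. Glycolysis and hypoxia genes had 5 of 37 higher and 8 lower, shares near those of all genes, and the higher count was 3, 2 and 1 without LTHSC VF 1, 2 and 3. Ldhb, a lactate dehydrogenase chain, fell by 2.95 (140 ± 35.0 to 18.1 ± 5.48 CPM), and the glucose carrier Slc2a3 by 1.55, while Ldha did not pass (log2 0.61, adjusted p = 0.0642). Cholesterol synthesis genes had 3 of 25 higher and 3 lower (12% each, beside 16.9% and 20% of all genes). The lower count was 0 without LTHSC VF 1, 1 without LTHSC VF 3, preMegE VF 2 or preMegE VF 3, 5 without preMegE VF 1, and 5 and 6 with upper-quartile and no TMM scaling. Of 30 genes of the unfolded protein and integrated stress responses 13 rose and 3 fell (median 0.53), and the rising count was 7, 5 and 3 without LTHSC VF 1, 2 and 3 5 without TMM scaling and 1 with all 24 libraries. Asns, asparagine synthetase, went from 40.8 ± 6.18 to 197 ± 66.5 CPM (log2 2.27). Trib3, a pseudokinase induced by the same stress factor, went the other way, from 26.5, 28.8 and 52.7 CPM to 1.70, 1.61 and 1.78 (log2 -4.40, SE 0.35, adjusted p = 2.91e-05). Xbp1, a factor of the unfolded protein response, fell by 1.46.

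Interferon response genes were lower in preMegE, with 40 of 57 lower, 0 higher by edgeR and a median of -1.24. The count higher was 1 at an unadjusted p under 0.05, 1 by DESeq2 and 3 without preMegE VF 3. Gbp8, a guanylate-binding protein, was at 46.0, 56.5 and 74.3 CPM in LTHSC and 0.714, 0.0945 and 0.539 in preMegE (log2 -7.04, SE 0.49, adjusted p = 1.53e-05). Iigp1, an immunity-related GTPase, was at 231, 223 and 323 CPM and 12.0, 6.24 and 12.9 (log2 -4.64, SE 0.33, adjusted p = 1.65e-05). Gbp2 fell by 2.34, Irgm2 by 2.58 and Irf7, the factor that amplifies the response, by 1.68. Not every member moved: Ifitm3 was at 1005 ± 92.4 and 703 ± 522 CPM (adjusted p = 0.382), and the immunoproteasome gene Psmb8 had a log2 fold change of 0.33. Antigen presentation had 10 of 21 lower and 0 higher by edgeR, DESeq2 or limma voom, also at an unadjusted p under 0.05 (median -0.69). The class II genes fell, with Cd74, the invariant chain, at 712, 537 and 1049 CPM in LTHSC and 64.2, 18.1 and 18.6 in preMegE (log2 -4.51, SE 0.53, adjusted p = 0.000221), and H2-Aa from 240 ± 60.9 to 14.6 ± 12.6. Ciita, the master regulator of class II genes, fell by 3.39. The class I genes H2-K1 (log2 -0.53, adjusted p = 0.0784) and B2m (log2 -0.44, adjusted p = 0.267) did not pass. Of 24 NF-kB genes tested 13 fell and 3 rose (median -1.09), with Relb, a subunit of the factor, from 14.5 ± 4.39 to 2.15 ± 0.207 CPM and the inhibitor Nfkbia from 303 ± 50.2 to 137 ± 31.6.

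Adhesion and niche genes had 13 of 31 lower and 4 higher (median -0.31). Emcn, a sialomucin of stem cells and endothelium, fell by 4.61, and Itgal, the LFA-1 integrin chain, rose from 3.82, 6.58 and 2.63 CPM to 74.5, 76.0 and 74.5 (log2 4.11, SE 0.33, adjusted p = 3.11e-05). Of 20 Bcl2 family and caspase genes 8 rose and 1 fell. The rising genes included Bid, which links death receptors to mitochondria (log2 1.25), while Bcl2 (log2 -0.06), Mcl1 (-0.55) and Bcl2l1 (-0.52) did not pass. The rising count was 5 without LTHSC VF 2 or 3 and 1 with all 24 libraries, and the falling count 5 without preMegE VF 1, 3 without preMegE VF 2 and 5 or 6 with upper-quartile or no TMM scaling. The 21 p53 targets had 6 higher and 4 lower, the 28 chromatin genes 7 and 2, and the 29 lysosome and autophagy genes 4 and 7. Without preMegE VF 2 the rising count of chromatin genes was 11, without LTHSC VF 3 there was 1 lower p53 target, and without LTHSC VF 1, 2 or 3 or preMegE VF 3 there were 2 lower lysosome genes. Optn, an autophagy receptor, rose from 18.3 ± 1.70 to 113 ± 49.8 CPM (log2 2.63).

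Markers of other lineages were also higher in preMegE. Of 27 neutrophil and monocyte markers tested 14 rose and 2 fell (median 2.90), and without preMegE VF 1 the counts were again 14 and 2. Both falling calls were lost without any 1 of the other 5 libraries. Members near 0 in LTHSC, such as Cx3cr1 with 1 count there, passed the filter on low counts only through preMegE. Their direction was set by the filter, and they are part of the count and the median. Mpo, the myeloperoxidase of granulocyte precursors, was at 42.7, 65.2 and 70.6 CPM in LTHSC and at 11583, 7554 and 7809 in preMegE (log2 7.24, SE 0.36, adjusted p = 3.33e-06). Elane, neutrophil elastase, was at 10.5, 14.3 and 16.3 CPM and at 2701, 639 and 945 (log2 6.70). Ctsg, the cathepsin of the same granules, was at 4.28 to 5.14 CPM and at 2001, 658 and 849 (log2 7.93). All 3 preMegE libraries were far above LTHSC, and VF 1 was the highest for each. Markers of late neutrophils did not pass, such as S100a8 (log2 3.17), Camp (2.27) and Ltf (0.55). Among the VF libraries each was highest in preMegE VF 1. Scaled over the 12 libraries of both lines, S100a8 was at 2321, 14.7 and 79.2 CPM in preMegE VF 1, 2 and 3. In LTHSC VF it was at 58.9 to 114 CPM. Camp was at 418, 6.34 and 24.8 CPM in preMegE VF and 17.8 to 39.3 in LTHSC VF. Lyz2, the lysozyme of monocytes and macrophages, fell by 1.05 (adjusted p = 0.0209). The part of such cells in the results above was not tested.

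Of 26 lymphoid markers 15 passed the filter, 12 rose and 2 fell. Members near 0 in LTHSC, such as Igll1, passed it only through preMegE, so their direction was set by the filter. The falling count was 0 without LTHSC VF 1 or 3 and 1 without LTHSC VF 2, preMegE VF 2 or preMegE VF 3. Igll1, a chain of the pre-B cell receptor, had 6 counts in the 3 LTHSC libraries together and was at 45.1, 45.9 and 59.3 CPM in preMegE. Dntt, which adds bases to antigen receptor joints, was at 0.402 ± 0.213 and 61.7 ± 39.1 CPM (log2 7.24). Cd8a, a marker of T cells, had 0 counts in all 6 libraries. Of 12 mast cell, basophil and eosinophil markers that passed the filter (of 22) 7 rose and 0 fell by edgeR, with 1 lower at an unadjusted p under 0.05 and under upper-quartile or no TMM scaling. Mcpt8, a basophil protease, was at 106, 20.9 and 26.98 CPM in preMegE, with 6 counts in LTHSC, and it too passed the filter only through preMegE. Hdc, which makes histamine, was at 1.64 ± 0.212 and 94.7 ± 21.7 CPM (log2 5.85). Mcpt4, Tpsb2 and Tpsab1, markers of mature mast cells, had 0 counts in all 6. Stroma and endothelium markers were at summed levels of 232 to 241 CPM in LTHSC and 209 to 235 in preMegE. Of 10 tested 1 was higher (10%) and 3 lower (30%), beside 16.9% and 20% of all genes. Lum, a stromal proteoglycan, was at 0.

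**Figure D4:**
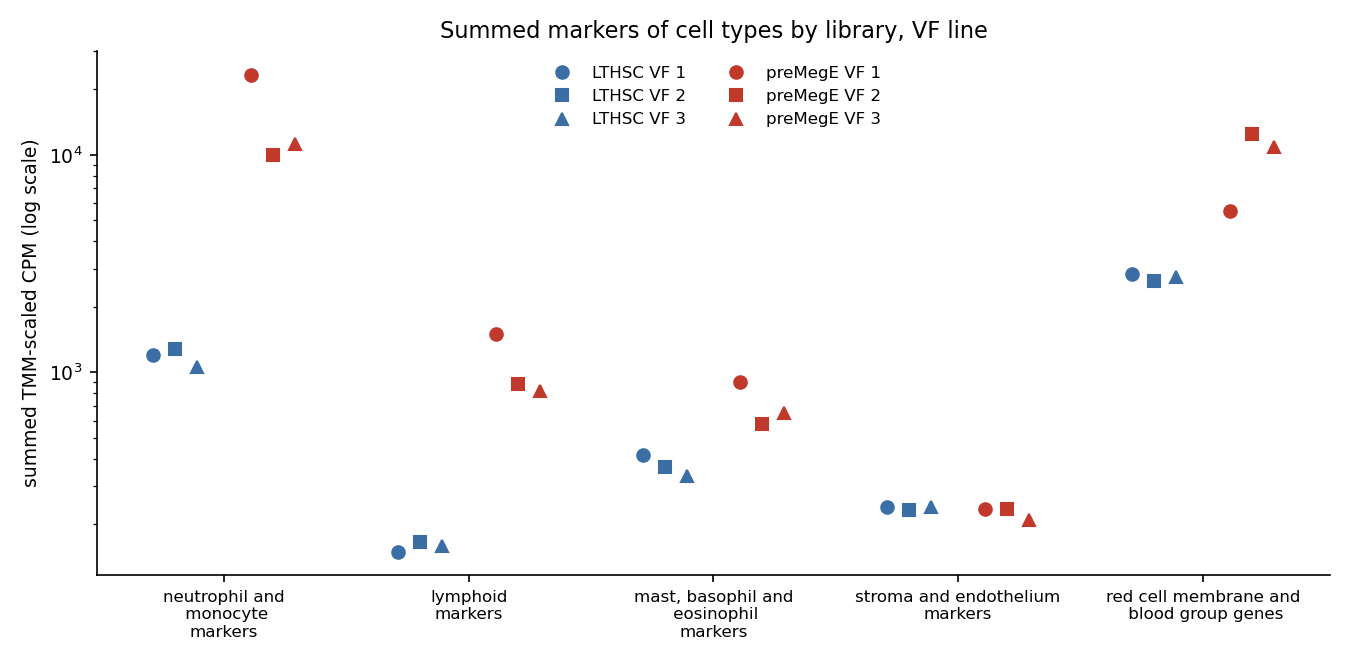
Summed TMM-scaled CPM (log axis) of 4 lists of other cell types and of the red cell membrane list in each LTHSC (blue) and preMegE (red) library, with marker shapes for replicates 1, 2 and 3. The neutrophil and monocyte sum is 1054 to 1284 in LTHSC and 9985 to 23372 in preMegE, highest in preMegE VF 1, which has the lowest red cell sum of the 3.

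Among genes that reached 10 CPM on average in 1 population, the largest rises and falls were nearly on-off. Abcg4, a sterol exporter, had 1 count in the LTHSC libraries together and 1933 in preMegE, and Acsl6, which activates long-chain fatty acids, 1 and 844. Pklr, the red cell pyruvate kinase, was at 0.083, 0.250 and 0.125 CPM in LTHSC and 37.9, 118 and 91.6 in preMegE (log2 9.03, SE 0.58, adjusted p = 1.23e-05). Tspo2, a cholesterol-binding protein of erythroid cells, rose by 8.23, and the protease gene Prss50 by 8.62. In the other direction, Efna1, an ephrin, was at 27.4, 28.04 and 28.2 CPM in LTHSC and 0.0549, 0.236 and 0 in preMegE (log2 -8.12, SE 0.58, adjusted p = 1.84e-05). Neo1, the netrin receptor neogenin, was at 23.2, 13.4 and 25.7 CPM and had 4 counts in preMegE, and Ncam2, an adhesion molecule, fell by 6.80. Sult1a1, a sulfotransferase, was at 65.0, 121 and 174 CPM and at 1.15, 1.13 and 1.82 (log2 -6.43). None of these 15 rises and 15 falls overlapped between the groups, which the rule for naming them required. Genes near 0 in 1 population, such as Abcg4, Acsl6, Pklr, Efna1 and Neo1, passed the filter on low counts only through the other. Their direction was thus set by the filter.

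The same step was then compared with the KI line over 12 libraries, with a test of the difference between the steps. Of 14387 genes 4 were called (0.0278%), beside 990 at an unadjusted p under 0.05, and DESeq2 called 78. In this fit Elane was at 9.85, 13.4 and 15.4 CPM in LTHSC VF and 2507, 616 and 946 in preMegE VF, beside 20.4, 89.6 and 60.4 in LTHSC KI and 94.0, 77.2 and 82.9 in preMegE KI. The KI populations overlapped for Elane while the VF populations did not, and the steps differed by 6.14 on the log2 scale (SE 0.80, adjusted p = 0.0203). Fcgr3 was at 1.602, 1.22 and 1.18 CPM in LTHSC VF and 32.3 to 87.4 in preMegE VF, and at 4.44 to 7.86 and 4.77 to 9.89 in the KI line (difference 5.26, SE 0.61, adjusted p = 0.0110). Hdc rose in both lines, by 5.88 in VF and 2.30 in KI (difference 3.57, SE 0.51, adjusted p = 0.0268). Podxl, a sialomucin of stem cells, platelets and endothelium, was at 47.6 to 93.9 CPM in LTHSC VF and 19.95 to 28.3 in preMegE VF, and at 16.2 to 30.01 and 71.7 to 145 in KI, so the 2 lines moved in opposite directions (difference -3.74, SE 0.52, adjusted p = 0.0249). The counts depended on single libraries: 0 genes were called without LTHSC VF 1, LTHSC VF 2 or preMegE VF 3 (676, 699 and 829 at an unadjusted p under 0.05), 1 without LTHSC KI 3 or preMegE KI 3, 2 without LTHSC KI 1, LTHSC VF 3 or preMegE VF 1, and 14 without preMegE KI 1, whose TMM factor was 0.515.

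The neutrophil and monocyte marker sums of these 12 libraries were 990 to 1208 CPM in LTHSC VF, 9638 to 21693 in preMegE VF, 1620 to 3960 in LTHSC KI and 3635 to 5001 in preMegE KI. Elane belongs to that list, and the part of such cells in the 4 calls was not tested. For the lineage genes the difference of the steps did not pass. Klf1 had a step of 5.27 in VF and 6.87 in KI (difference -1.60, SE 0.56, adjusted p = 0.601), Gata1 of 2.32 and 3.86 (-1.54, SE 0.53, adjusted p = 0.588), Epor of 1.99 and 3.01 and Tfrc of 2.68 and 3.64. Vwf had a step of -1.29 in VF and 0.75 in KI (difference -2.04, SE 0.43, adjusted p = 0.228) and Pf4 of 2.51 and 5.81 (-3.30, SE 1.22, adjusted p = 0.643). With standard errors of 0.43 to 1.22 in these 4 tested differences, a miss of the threshold does not show that the lines made the same step. In LTHSC VF and LTHSC KI mean CPM was 206 and 35.1 for Vwf and 120 and 19.6 for Pf4. Gata1 was at 81.7 and 28.9 there, and Klf1 at 17.8 and 6.83. In preMegE VF and KI, in the same order, these genes were at 84.1 and 59.0, 683 and 1097, 408 and 420, and 689 and 801. Tfrc was at 25.4 and 25.7 in LTHSC and at 163 and 320 in preMegE. The 3 preMegE KI libraries were at 2831, 248 and 212 CPM for Pf4.

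**Figure D5:**
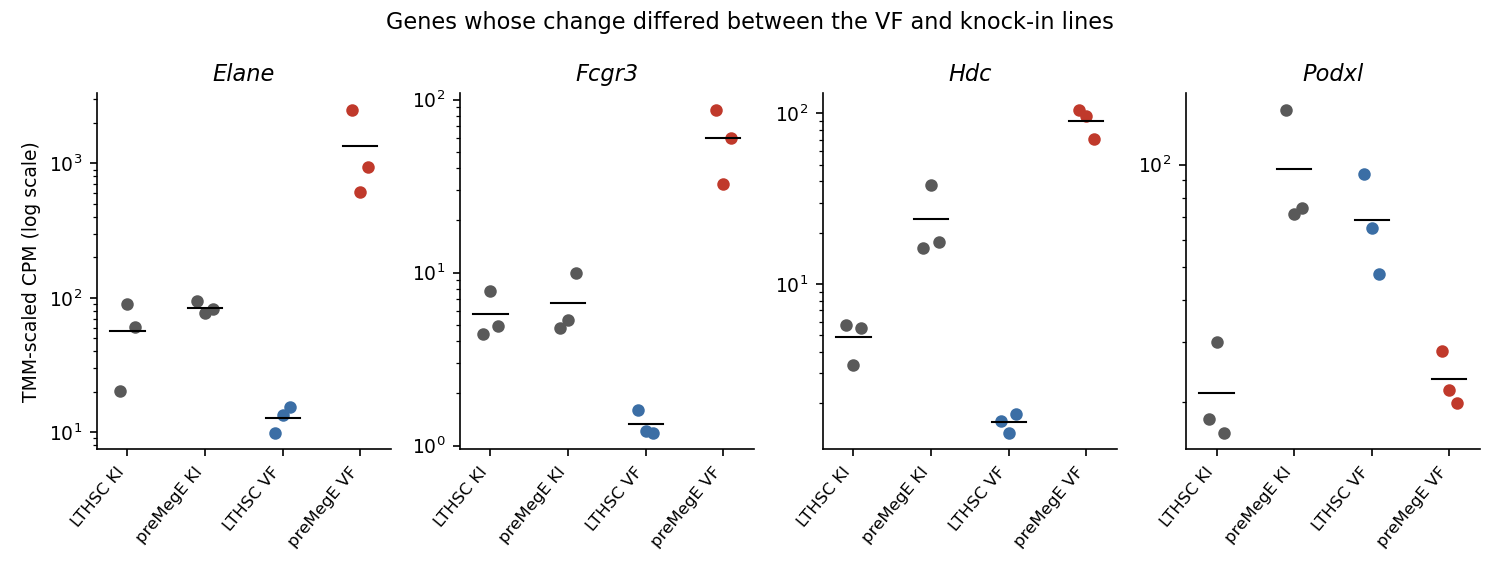
Points are TMM-scaled CPM (log axis) in the 3 libraries of each group and black bars the means, for the 4 genes called in the test of the difference between the lines. Elane and Fcgr3 are high in preMegE VF alone of the 4 groups, Hdc is highest there, and Podxl is higher in preMegE than in LTHSC in KI and lower in VF.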

How the data were processed

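RNA-seq counts of sorted bone marrow cells were used as deposited. The authors aligned reads to mm10 with STAR 2.7.0c and counted them per gene with featureCounts (Subread 1.6.4), per the submitters' processing notes. The annotation, the strand setting and the treatment of reads with several matches are not given in the sources used here. The deposited counts are whole numbers for 24454 Entrez genes, with a column of gene lengths that served for RPKM (reads per kilobase of transcript per 1e6 counts). The table's column names call the preMegE libraries MEP, and they were matched to the sample titles by line and replicate number. Symbols and coordinates came from RefSeq (GRCm38.p6), where 24374 IDs matched. The 16 rows without a symbol held at most 0.0109% of a library and were left out.

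Genes were filtered by edgeR's filterByExpr within the 6 libraries (13743 kept), scaled by TMM and tested with edgeR 4.0.16 (R 4.3.3; robust quasi-likelihood fit, Benjamini-Hochberg adjusted p under 0.05, no block). The difference between the lines was an interaction contrast in 12 libraries (14387 genes). In simulated data with 67, 67 and 66 genes changed 2-, 4- and 8-fold, the 6-library test recovered 25.4%, 85.1% and 93.9% of them. The test of the difference between the lines recovered 1.49%, 13.4% and 60.6%. Alternatives were other scalings, no filter, DESeq2 1.42.0, limma 3.58.1 with voom, a replicate block, all 24 libraries and each library left out. Genes were named if they were in a short list of lineage and signalling genes, among the 15 largest non-overlapping rises or falls at a mean of at least 10 CPM, or among the 6 largest called changes each way in 1 of 40 gene lists. Members that did not pass, genes of fewer than 10 CPM and sex-linked genes named beside them were chosen after their values were seen. Some genes that the rule names are not reported here. The lists and comparisons were chosen with earlier results of these data known. With 3 libraries a group, p-values measure only the spread between these libraries.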

Additional observations from a re-analysis of the deposited data

Results flagged for a closer look

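In 4 genes the step from LTHSC to preMegE differed between the VF and KI lines by the interaction test over 12 libraries, with edgeR's adjusted p under 0.05. On the log2 scale, VF minus KI, the difference was 6.14 for Elane (neutrophil elastase), 5.26 for Fcgr3 (a CD16/32 antigen), 3.57 for Hdc (histidine decarboxylase) and -3.74 for Podxl (podocalyxin). Each VF step had no overlap between its populations, which held for 53.2% of all genes tested between the VF populations. The 3 libraries of preMegE VF were the highest of all 12 for the first 3 genes. The test that picked the 4 genes used these same values, so this is no added support. The line and its Cre driver cannot be told apart, and the calls were lost without LTHSC VF 1, LTHSC VF 2 or preMegE VF 3.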

How the results depend on the processing

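The 5065 calls between the VF populations stayed within 1.5 times under other scalings, no filter, DESeq2 and limma voom, except that 1448 genes were higher without TMM scaling (27.8% of calls, against 45.8%). Upper-quartile scaling gave 36.2% higher. With all 24 libraries 1592 were called, 618 higher and 974 lower, of which 1581 were also called in the 6 libraries. Leaving out 1 library gave 2919 to 5833 calls (1177 to 2672 higher, 1742 to 3161 lower). No call changed direction in any alternative. For the difference between lines, 4 genes became 7 without the filter (5 higher, 2 lower), 78 with DESeq2 (32 higher, 46 lower) and 2 with limma voom (1 higher, 1 lower). Leaving out 1 library gave 0 to 14 (0 to 10 higher, 0 to 4 lower). Of 302 named genes 177 kept direction and side of the threshold throughout. The uncalled change of Alas2 ranged from -0.029 (without preMegE VF 2) to 0.74 (without LTHSC VF 3) and was the single reversal. The cause of these shifts was not tested. With 3 libraries a group, a missed threshold does not show equal levels.

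The labels do not say whether a replicate number marks a shared mouse or batch, and pairing was not established. The deviations of same-numbered LTHSC and preMegE libraries correlated at -0.039, -0.002 and 0.030, while replicate 2 was the library high in Xist in both populations. With the replicate block 4687 genes were called, and 8 for the difference between lines (5 higher, 3 lower). Of the 4 genes called there without the block 3 were among the 8, and Hdc was not (log2 3.65, adjusted p = 0.0739). With the block Ptpn11 (adjusted p = 0.0778), Hmga2 (0.0512) and Bpgm (0.0555) did not pass, and 2 beta-globin entries were called lower. Hdc also missed the threshold without TMM scaling (0.119) and with limma voom (0.267), as did Fcgr3 with limma voom (0.0987).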
